A study of Mus musculus with 6 samples.

Results

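Interferon regulatory factor loci are described here in splenic naive B cells that lack Tet2 or carry it intact. The 7 genes Irf1, Irf2, Irf4, Irf5, Irf8, Irf9 and Irf2bp2 were taken by name from 21887 protein-coding genes, and each locus runs from 30 kb below the gene to 30 kb above it in GRCm38. Together the loci held 1435 of the 1457048 CpG cytosines that were covered at least 10 times in all 6 libraries, and 96 of the 108802 windows of 1 kb (tiles) with at least 3 such cytosines. No measured value was used to choose the genes, although results of these data were known when they were chosen.

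Methylation was read by enhanced reduced representation bisulfite sequencing (ERRBS), in which DNA is cut at CCGG sites and unmethylated cytosines are converted, so that CpG-rich fragments are covered deeply and most of the remaining genome is not covered. Bisulfite does not separate 5-methylcytosine from 5-hydroxymethylcytosine, and the values count both. The groups were 3 libraries of Tet2 knock-out cells (KO 1 to 3) and 3 of Tet2 wild-type cells (WT 1 to 3), all labelled as naive B cells from the spleen of C57BL/6 mice. Naive is the word of the title and of every sample label, while the series' design text names germinal centre (GC) cells instead. The labels do not describe the knock-out allele, the age of the mice, whether animals were pooled, or whether each library came from its own mouse, so the spread between libraries may be partly technical.

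Irf proteins bind DNA through a shared N-terminal domain that recognises GAAA repeats, the core of the interferon-stimulated response element. Irf1 and Irf2 are respectively best known as an activator and a repressor of interferon-responsive genes, and Irf9 is part of the complex that answers type I interferon. Irf5 acts below Toll-like receptors, Irf4 and Irf8 pair with Ets factors such as PU.1 and steer B cell, germinal centre and plasma cell programmes, and Irf2bp2 binds Irf2 as a co-repressor. TET2 oxidises 5-methylcytosine, a step that leads to loss of methylation.

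Libraries held 1551481 to 1626375 cytosines and 168455105 to 207065050 reads summed over them, with a median coverage of 92 to 110. Across the span of Tet2, 6 of 118 cytosines were covered by 28 to 71 reads in every WT library and by no KO library, and 0 were covered in the opposite way. Of the B cell, T cell, myeloid, NK and erythroid marker genes, only 1 of 6 B cell markers and 1 of 4 erythroid markers had a measured start window, so the labelled cell type could not be checked from these files. No loss of coverage of that kind was found at the Irf loci: of 1675 cytosines seen in any library, 0 were seen in every KO and no WT library and 0 the other way round.

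The promoters show where the assay looks. The 300 bases around the first start of 3 members are given from RefSeq (GRCm38.p6), from 250 before to 50 after the start, with each CpG that was measured in all 6 libraries in capitals. Irf8 has a CpG-rich promoter at chr8:120736108-120736407 (plus strand), of whose 38 CpGs 17 were measured. Irf4, at chr13:30748983-30749282 (plus strand), has 11 CpGs of which 10 were measured, and Irf9, at chr14:55603735-55604034 (plus strand), is CpG-poor, with 3 of 9 measured.
Irf8: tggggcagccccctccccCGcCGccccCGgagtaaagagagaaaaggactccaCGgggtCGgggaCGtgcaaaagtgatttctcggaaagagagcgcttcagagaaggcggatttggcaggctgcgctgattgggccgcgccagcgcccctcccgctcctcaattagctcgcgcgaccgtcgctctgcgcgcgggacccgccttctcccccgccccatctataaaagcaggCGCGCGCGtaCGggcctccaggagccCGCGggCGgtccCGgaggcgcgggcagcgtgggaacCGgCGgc
Irf4: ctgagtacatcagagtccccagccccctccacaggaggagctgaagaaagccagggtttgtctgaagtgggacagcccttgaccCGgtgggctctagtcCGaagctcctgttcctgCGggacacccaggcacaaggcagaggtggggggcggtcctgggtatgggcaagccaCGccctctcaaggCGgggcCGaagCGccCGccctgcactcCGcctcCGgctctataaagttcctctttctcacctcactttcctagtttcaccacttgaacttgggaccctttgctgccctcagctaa
Irf9: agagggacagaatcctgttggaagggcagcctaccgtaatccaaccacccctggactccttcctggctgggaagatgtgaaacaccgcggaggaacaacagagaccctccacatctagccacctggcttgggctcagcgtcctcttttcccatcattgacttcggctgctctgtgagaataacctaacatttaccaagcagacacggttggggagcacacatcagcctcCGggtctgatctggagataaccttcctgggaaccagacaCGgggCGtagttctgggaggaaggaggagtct
These capitals were almost unmethylated in both genotypes. At the Irf8 promoter the mean was 0.0852% in KO and 0.118% in WT, at Irf4 0.144% and 0.14%, and at Irf9 0.162% and 0.753%. The records at the first start of Irf1, Irf2, Irf5 and Irf2bp2 were measured at 25 of 32, 16 of 19, 26 of 35 and 13 of 39 CpGs, and none of these 4 exceeded 0.202% in either genotype. A record at another start of Irf1, with 20 of 43 CpGs measured, had 0.329% and 0.291%.

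Motifs of interferon signalling were searched on both strands of these records. The interferon-stimulated response element core was searched as GAAA, any 2 bases and GAAA again, which occurs in 3.44% of 32851 promoter records. The GAS element, a site of interferon-gamma signalling, was searched as TTCNNNGAA (8.3%), and the Ets-IRF composite, bound by PU.1 with Irf4 or Irf8, as GGAA, any 2 bases and GAAA (2.72%). Matches are shown in capitals, each on the plus strand, because 3 members held them next to a start that was itself unmethylated.
Irf1, GAS, chr11:53769912-53769944: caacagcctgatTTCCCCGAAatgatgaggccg
Irf2, response element core, chr8:46739495-46739525: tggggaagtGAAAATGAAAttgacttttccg
Irf2, GAS, chr8:46739509-46739541: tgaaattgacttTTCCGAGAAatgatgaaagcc
Irf8, GAS, chr8:120736175-120736207: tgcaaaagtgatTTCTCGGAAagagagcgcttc
The Irf2 response element overlaps a match to the Ets-IRF composite, and Irf8 has another GAS match, TTCAGAGAA, without a CpG. Of these matches only the Irf2 GAS element had its CpG measured: 1 cytosine, at 0% in all 6 libraries, where the lowest depth of 140 reads allows up to 2.14% (3 reads, counting error only). The records of Irf4, Irf5, Irf9 and Irf2bp2 held no match to these letters.

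Averaged over whole loci with every cytosine weighted equally, methylation was higher in KO than in WT at all 7 genes. With this weighting the largest difference was at Irf8, where the locus mean over 220 cytosines was 49.5%, 49.3% and 49.4% in KO and 46.5%, 47.2% and 47.6% in WT. The lowest KO value exceeded the highest WT value, and the means were 49.4% ± 0.122 and 47.1% ± 0.584 (SD, n = 3 each), a difference of 2.3 percentage points. At Irf4 the KO values were 43.2%, 42.6% and 43.0% and the WT values 39.5%, 41.6% and 42.9%. The mean difference was 1.57 points, but WT 3 lay above KO 2, so the genotypes overlapped; the difference was 0.66 points without WT 1 and 2.36 points without WT 3.

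Irf5 ranked next with 13.0%, 12.5% and 12.3% in KO against 11.5%, 11.7% and 11.5% in WT, a difference of 1.02 points with no overlap. Irf1 had 24.5%, 25.2% and 24.4% in KO against 23.7%, 23.8% and 24.0% in WT, also without overlap. Irf2bp2, whose locus is mostly unmethylated, had 4.42%, 4.45% and 4.43% against 4.17%, 4.3% and 4.34%, a difference of 0.166 points without overlap. Irf9 (28.6% ± 0.249 against 28.1% ± 0.3) and Irf2 (20.7% ± 0.379 against 20.5% ± 0.2) overlapped between genotypes. Thus 4 of 7 loci did not overlap with KO higher, and 0 with KO lower, where 19.3% and 1.64% of 19322 gene loci treated alike did so; 75.9% of those had a higher KO mean. A shift in methylation per cell and a shift in which cells make up the sample cannot be told apart in bulk DNA. A difference as large as that of Irf8 or larger was found at 3.0% of gene loci, and the corresponding shares were 6.31% for Irf4, 12.5% for Irf5, 15.7% for Irf1, 28.4% for Irf9, 52.0% for Irf2 and 57.9% for Irf2bp2. The exact two-sided permutation p was 0.1 for the 4 separated loci, the smallest that 3 libraries against 3 allow.

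The order of the loci depended on the weighting. With reads pooled over each locus, so that deeply covered cytosines count more, all 7 loci were again higher in KO, but the largest differences were at Irf2 (14.7% ± 1.73 against 8.67% ± 2.05, 5.99 points) and Irf1 (18.1%, 17.9% and 16.2% against 10.1%, 12.2% and 13.7%, 5.42 points). Irf5 followed with 4.8 points and Irf4 with 3.76 points, and these 4 loci did not overlap between genotypes, although at Irf4 the closest KO and WT libraries both round to 35.6%. Pooled values also depend on how reads are divided between low and high cytosines. In the Irf2 interior, cytosines under 10% took 84.2% of reads in KO and 91.4% in WT. With equal weights the Irf2 locus differed by 0.22 points. Shares over all gene loci were computed with equal weights only, so the counts with pooled reads have no background and cannot be read as particular to these loci. Irf8 had 44.7%, 41.3% and 47.7% in KO against 38.1%, 43.5% and 44.3% in WT, 2.62 points with overlap (exact permutation p 0.4). Irf2bp2 (0.48 points) overlapped as well, as did Irf9 (0.853 points). Irf1 and Irf5 were thus the loci that separated the genotypes under both weightings with flanks of 30 kb. With flanks of 10 kb and equal weights, Irf5 overlapped (0.252 points, exact permutation p 0.3) and Irf1 did not (0.488 points, exact permutation p 0.1).

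**Figure D1:**
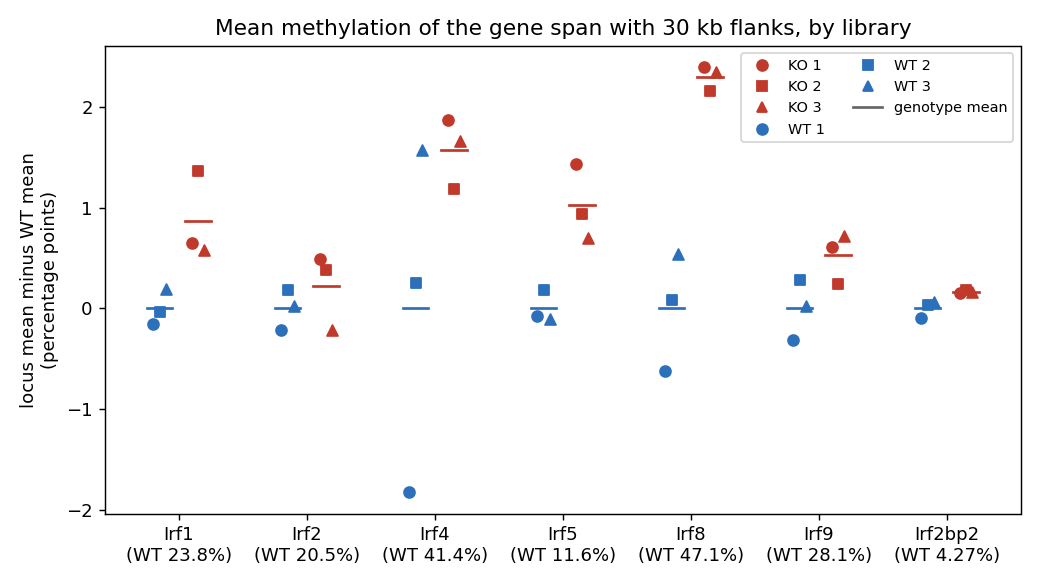
Mean CpG methylation of each locus (gene span with 30 kb on each side) as the difference from the WT mean in percentage points, 1 point per library, with a bar for each genotype mean. All 3 KO points lie above all 3 WT points at Irf1, Irf5, Irf8 and Irf2bp2, and the difference is 2.3 points at Irf8 and 1.57 points at Irf4.

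By tile, 66 of 96 were higher in KO and 30 lower, with a median difference of 0.525 points, against 0.176 points and 59.8% higher over all tiles. Each tile was tested with a quasi-binomial model of methylated and unmethylated read counts fitted over the whole genome; a tile was called at a Benjamini-Hochberg adjusted p under 0.05 with a pooled difference of at least 10 points. This called 1 of the 96 tiles, at Irf8, against a background of 0.112% of all tiles, all of them higher in KO. At an unadjusted p under 0.05, 12 of the 96 (12.5%) were higher and 0 lower, where the whole genome had 5.74% higher and 1.46% lower. In 13 tiles (13.5%) every KO library exceeded every WT library and in 0 the reverse held, against 8.35% and 3.36% of all tiles.

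The differences were widest where methylation was intermediate. Of the 37 tiles under 10% in WT, 25 were higher in KO with a median difference of 0.101 points. Of all tiles at that level 62.0% were higher, a similar share, with a median of 0.0528 points. The 7 tiles at 10 to 30% had a median of 5.11 points against 1.05, the 8 at 30 to 70% 3.72 against 1.7, and the 12 at 70 to 90% 2.96 against 1.36. The 32 tiles above 90% had a median of 0.659 points against 0.209.

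**Figure D2:**
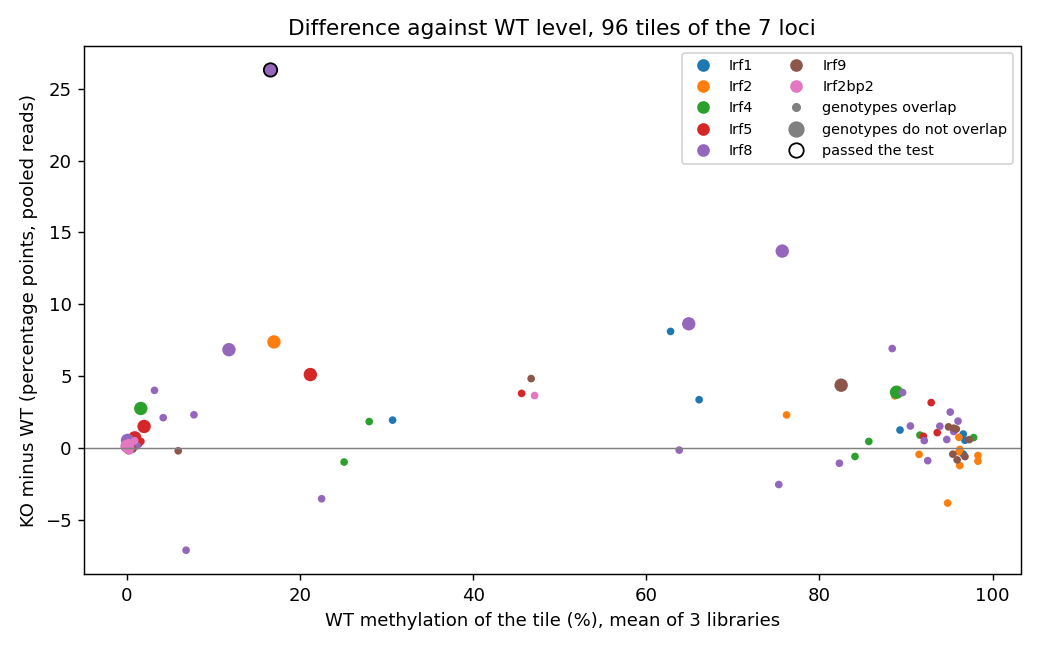
Each of the 96 tiles by its WT methylation (horizontal axis, percent) and its KO minus WT difference (vertical axis, percentage points), coloured by locus. Large points are tiles in which the genotypes do not overlap, and the black outline marks the 1 tile that passed the test, at Irf8 with a difference of 26.3 points.

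The called tile lies 20.3 kb beyond the end of Irf8, at chr8:120777001-120778000, 41.1 kb from the first start. No gene annotated in RefSeq covers it: Irf8 is the nearest protein-coding gene, the next is Cox4i1 at 103 kb, and the long non-coding genes Gm39266 and Gm33199 lie 6.85 kb and 8.99 kb away. Methylation was 44.2%, 45.0% and 42.0% in KO 1 to 3 and 11.0%, 20.2% and 18.6% in WT 1 to 3. The lowest KO library was thus far above the highest WT library, with means of 43.7% ± 1.59 and 16.6% ± 4.9 (SD, n = 3 each). The pooled difference was 26.3 points with an adjusted p of 0.00836 in the quasi-binomial model.

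The Irf8 tile rests on 6 cytosines at 4 CpGs within 58 bp, read 302 to 560 times in each KO and 309 to 441 times in each WT library. Each of these 6 cytosines was higher in all KO than in all WT libraries, by 17.6 to 31.0 points pooled over reads. Cytosines this close are not independent of each other, and none passed the test alone (adjusted p 0.532 to 0.551). Both strands of a CpG could differ. At 1 CpG, the plus-strand cytosine had 50.8% in KO and 20.1% in WT and the minus-strand cytosine 40.3% and 11.3% and at another the values were 49.9% and 19.9% against 29.2% and 13.0%. On each strand the KO level was the higher. The nearest other measured cytosines were 3088 bp below and 3053 bp above, so the width of the region could not be measured.

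The call held when any 1 of the 6 libraries was left out, with differences of 24.0 to 28.1 points and adjusted p of 0.0171 to 0.0323. It was lost (adjusted p 0.0798) when 141 tiles without a single methylated, or a single unmethylated, read were kept while estimating the shared spread. No tile in the genome was then called. The call was also lost without sharing the spread (0.903), with limma (0.704), with edgeR (0.884) and with cytosines weighted equally at their mean coverage (1.0). These fits called no tile anywhere in the genome either. All of the fits named above but the last use the same pooled difference of 26.3 points. Only the equal weights gave a new estimate, 25.7 points.

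**Figure D3:**
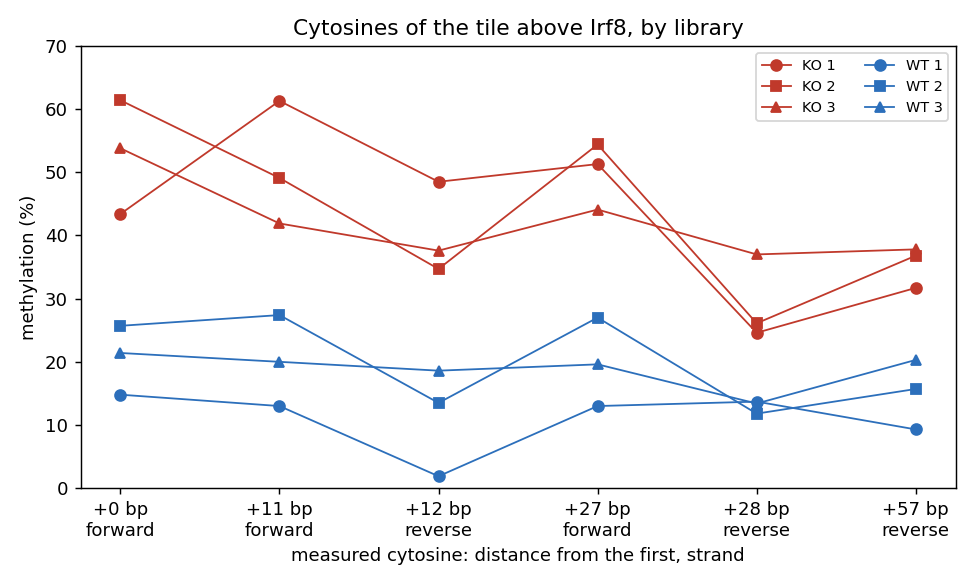
Methylation in percent (vertical axis) of the 6 cytosines of the called tile beyond Irf8, against their distance in bp from the first of them, 1 point per library. The KO points lie above the WT points at each cytosine, and the differences pooled over reads run from 17.6 to 31.0 points. The cytosines are spaced evenly and not to scale.

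Irf8 also carried other, smaller differences inside and outside the gene. Of the 6 tiles below the gene 4 were higher in KO, and of the 6 above it 5, the called tile included. At 10.9 kb before the first start 0.559% ± 0.251 in KO stood against 0.0861% ± 0.149 in WT without overlap (adjusted p 0.836). These low values rest on 4 cytosines at a median depth of 106 reads, and so on few methylated reads. At 23.1 kb after the start the difference was 6.92 points with overlap (adjusted p 0.859). Of the 14 tiles in the Irf8 gene span, 11 were higher in KO and 5 had an unadjusted p under 0.05, all higher, but none of them passed adjustment. Over all tiles of the genome 59.8% were higher in KO, and 5.74% were higher at that p. At 8.14 kb from the first start the KO libraries had 75.6%, 74.1% and 71.2% and the WT libraries 66.9%, 64.2% and 63.7%. The genotypes did not overlap there (8.64 points, adjusted p 0.358). At 16.1 kb the values were 19.8%, 16.3% and 20.3% against 10.2%, 12.4% and 12.8%, again without overlap (6.84 points, adjusted p 0.208). At 12.1 kb, 94.4%, 89.1% and 84.4% stood against 73.3%, 78.3% and 75.5%, a difference of 13.7 points (adjusted p 0.665) that rests on 3 cytosines at a median depth of 27.5 reads.

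The Irf8 start region was low in both genotypes. The tile that holds the first start had 0.377% in KO and 0.353% in WT over 49 cytosines, and the tile 0.858 kb before it was the one with the largest decrease of the locus, 1.88% ± 1.72 against 6.85% ± 6.01, with overlapping libraries and an adjusted p of 0.759. With the called tile left out, the Irf8 locus mean over 214 cytosines was still 49.6% ± 0.139 in KO and 47.9% ± 0.484 in WT, 1.62 points apart and without overlap. Among the 6 libraries WT 1 was the lowest in 13 of the 26 Irf8 tiles and in 35 of the 96 tiles in all, and its part in the differences was not tested beyond leaving it out.

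**Figure D4:**
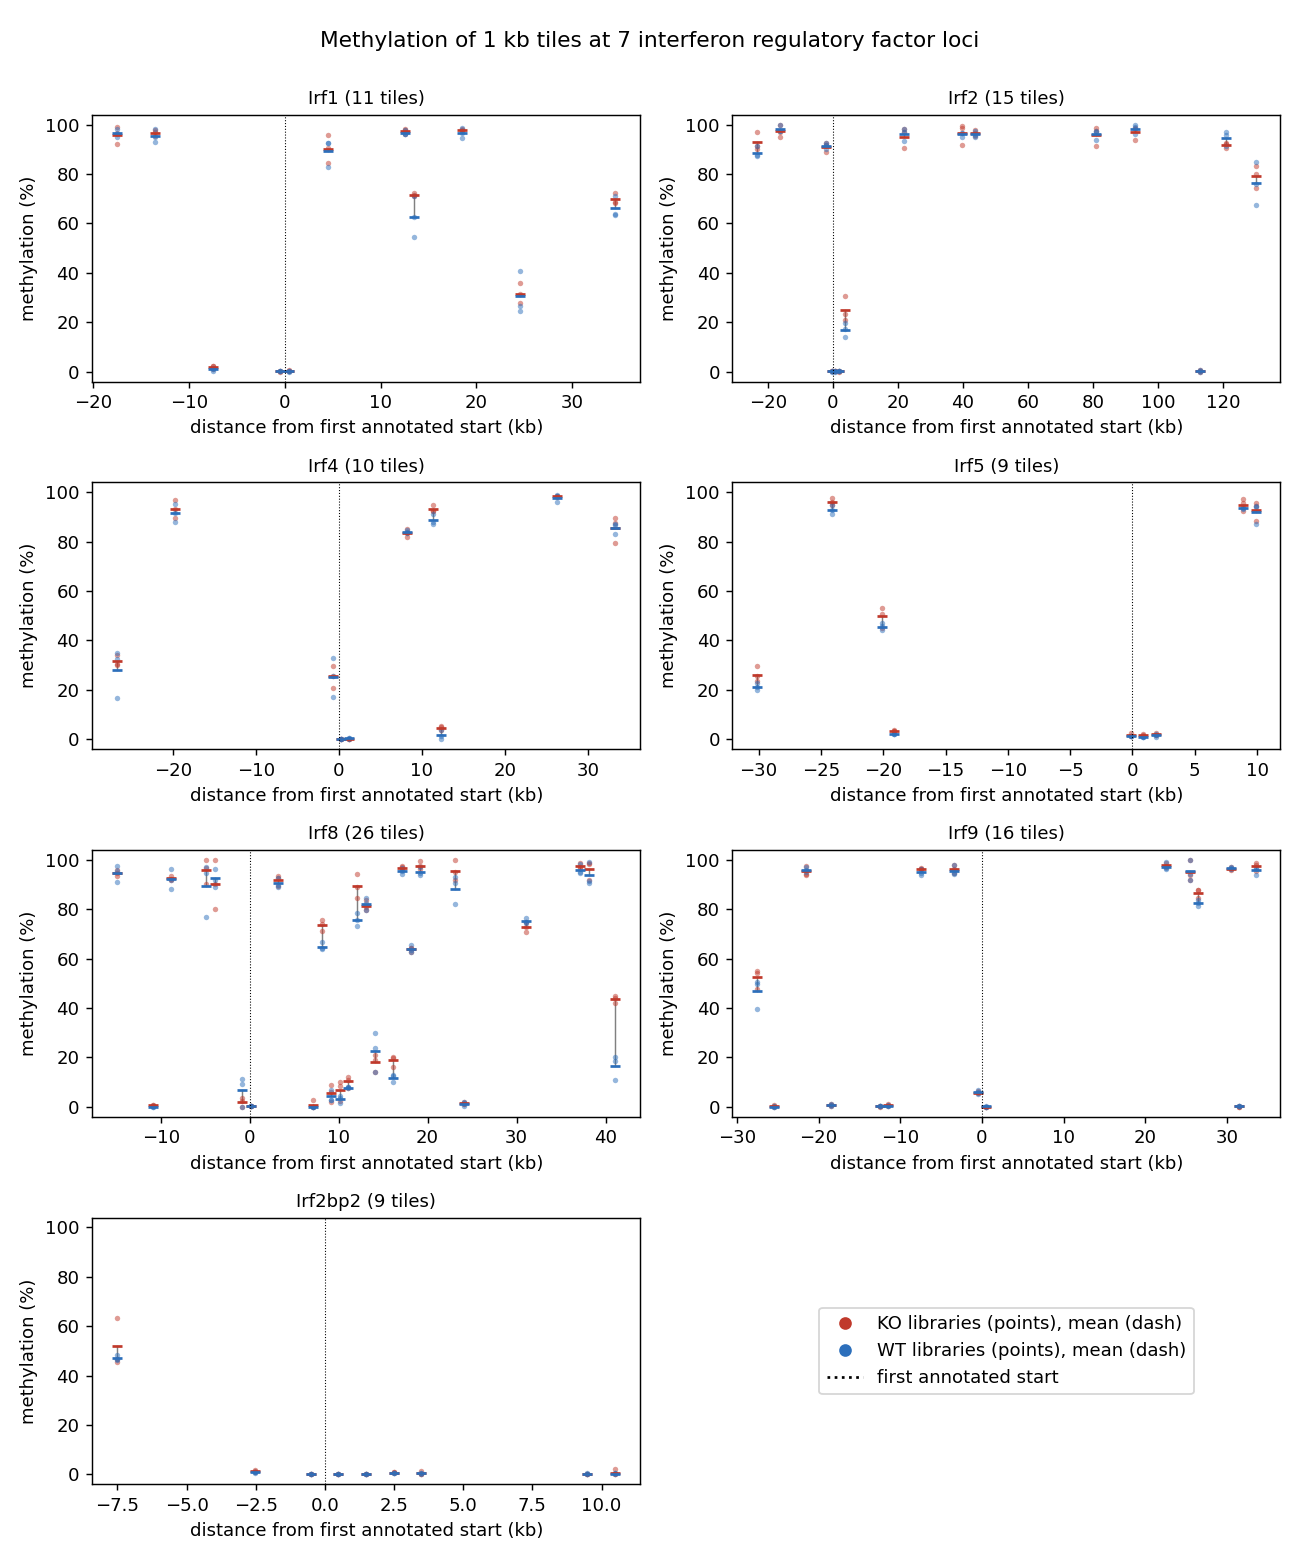
Methylation in percent (vertical axis) of the 1 kb tiles of each locus against distance from the first start in kb, positive in the direction of the gene, for the 6 libraries. Points are libraries and dashes genotype means, and the length of the horizontal axis differs between genes. Tiles that hold a start are at or below 5.94% in both genotypes, and the clearest gap between KO and WT is at 41.1 kb from the Irf8 start.

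Irf4, the regulator of plasma cell and germinal centre fate, had 10 tiles, of which 6 were higher in KO (59.8% of all tiles were) and none passed. Its tile with the smallest p, 11.3 kb into the gene, had 94.9%, 92.4% and 92.6% in KO against 87.3%, 91.3% and 88.0% in WT. The genotypes did not overlap, the difference was 3.88 points and the adjusted p was 0.633. WT 1 was the lowest library in 6 of the 10 tiles, and it also gave the lowest locus mean. Exoc2 lies within the same 30 kb.

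Irf5, the factor of Toll-like receptor signalling, was higher in KO in all 9 of its tiles, with a median of 1.07 points. Of these, 3 tiles had an unadjusted p under 0.05 and none passed adjustment. Over all tiles of the genome 59.8% were higher in KO, and 5.74% were higher at that p. The tile with the smallest p lies 19.1 kb before the start, within the neighbouring gene Kcp, and read 3.39%, 3.2% and 3.93% in KO against 2.01%, 1.97% and 2.03% in WT over 32 cytosines. The WT values were nearly the same and all KO values were above them, by 1.5 points at an adjusted p of 0.163. A tile 30.1 kb before the start, also in Kcp, had 26.2% ± 3.19 against 21.2% ± 1.38 (5.11 points, adjusted p 0.289).

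Of the factors of the interferon response, Irf1 had 9 of 11 tiles higher in KO, where 59.8% of all tiles were higher. In its tile with the smallest p, 4.63 kb beyond the gene, KO had 71.4%, 71.0% and 72.4% and WT 54.5%, 71.0% and 62.8%. KO libraries agreed closely while WT libraries were widely spread and 1 reached the level of KO 2, and the difference of 8.11 points had an adjusted p of 0.682. It was 4.45 points without WT 1, 12.7 without WT 2 and 1.88 with tiles shifted by 500 bp. Irf2, its antagonist, was divided: 7 of 15 tiles were higher and 8 lower, with a median of -0.0971 points. A tile 3.76 kb into Irf2 had 30.8%, 20.8% and 23.3% against 19.6%, 17.2% and 14.1%, without overlap but at an adjusted p of 0.78 over 3 cytosines; the difference of 7.38 points was 4.74 without KO 1 and 4.38 with equal weights.

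Irf9, the DNA-binding subunit of the type I interferon complex, was likewise divided, with 8 tiles higher and 8 lower. Only 7 of the 205 cytosines at its locus lay within Irf9 itself, since 8 other protein-coding genes share the window, and its tile with the smallest p lies in Ipo4 (86.7% ± 1.85 against 82.5% ± 1.18, adjusted p 0.574; 4.37 points, and 2.75 with equal weights). Irf2bp2, the co-repressor, had 8 of its 9 tiles under 10% methylated. The tile next to its start, which the long non-coding gene Gm31546 overlaps, read 0.189%, 0.157% and 0.0938% in KO against 0.0269%, 0.0286% and 0.0296% in WT over 32 cytosines. The difference was 0.116 points with an adjusted p of 0.789. It rests on 5, 6 and 3 methylated reads in KO 1 to 3 and 1 in each WT library, out of 2642 to 3829 reads per library.

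At single cytosines, 0 of the 909 that could be tested passed, against a background of 0.000731% of all cytosines. At an unadjusted p under 0.05 there were 73 higher and 17 lower, where the genome had 5.31% and 3.17%. The 311 CpGs of the loci measured on both strands differed between strands by a median of 0.22 points, and 17 differed by more than 10, of which 9 were at Irf8.

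Windows of 1 kb on each side of the gene end that holds the start could be tested for all 7 genes. Of these, 0 passed, as against 0.00569% of all gene-end windows. At Irf5 that gene end lies before the only annotated start, so its window is not centred on the start. The window of Irf4 was the most methylated, with 4.17%, 5.61% and 5.42% in KO and 3.46%, 7.05% and 7.25% in WT, overlapping between genotypes. Its methylated cytosines lay before the start: the tile at -0.733 kb had 25.4% ± 4.42 in KO and 25.1% ± 7.96 in WT, and the tile that holds the Irf4 start 0.142% ± 0.117 and 0.138% ± 0.125. Irf9 had 3.08% ± 0.42 against 3.31% ± 0.158, Irf5 1.59% ± 0.621 against 1.3% ± 0.0246, and Irf8 1.44% ± 0.12 against 1.5% ± 0.371. Irf1, Irf2 and Irf2bp2 were at or below 0.223% in both. At an unadjusted p under 0.05 there were 0 in either direction, against 4.95% higher and 0.876% lower over all windows. Adjusted p ran from 0.885 to 0.978, and none of the 7 separated the genotypes.

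Gene interiors, the spans without 1 kb at each end, were measurable for 5 members, and 0 passed, as was the case for 0% of all 11311 interiors. At an unadjusted p under 0.05, 2 of the 5 (Irf2 and Irf5) were higher and 0 lower, against 15.1% and 0.495% of all interiors. Pooled over reads, the Irf2 interior had 13.9%, 17.4% and 14.6% in KO and 6.47%, 7.73% and 10.5% in WT, without overlap (7.2 points, adjusted p 0.15). Without WT 3 the adjusted p was 0.0393 at 8.28 points, still under the 10 points a call requires, and 78 interiors over the genome were then called higher. With every cytosine weighted equally, however, it had 23.4% ± 0.417 and 23.3% ± 0.268, a difference of 0.12 points. The share of its reads that fell on the 91 cytosines under 10% was 84.2% ± 1.87 in KO and 91.4% ± 2.21 in WT, so the share of reads moved together with the pooled difference. Irf5 behaved alike: 25.4% ± 2.44 against 18.1% ± 4.8 pooled (adjusted p 0.234) became 27.9% ± 1.18 against 26.9% ± 0.573 with equal weights, with 74.6% and 81.6% of reads on low cytosines. Pooled over reads, Irf8 had 58.8% ± 3.36 against 57.0% ± 3.07, Irf4 31.5% ± 1.27 against 31.0% ± 2.68, and Irf2bp2 0.29% ± 0.0958 against 0.235% ± 0.0943. With equal weights at total coverage, a setting added after the data were seen, the Irf8 difference rose from 1.94 to 2.59 points. That of Irf4 rose from 0.853 to 1.05. Neither passed the quasi-binomial test (adjusted p 0.211 and 0.62).

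Elsewhere in the genome, tiles like the Irf8 tile were sought only inside other protein-coding genes. Tiles between genes, as the Irf8 tile is, were left out. The tiles inside genes were ranked by root mean square distance in points across the 6 libraries. The nearest lay at Trib1 (distance 2.58 points; 43.3%, 49.2% and 46.3% in KO against 12.2%, 21.4% and 18.1% in WT), followed by Map3k20 (3.83), Lancl3 (4.29), Tmem143 (4.36) and H2-Oa (4.94). They were picked for this likeness, so their pattern is a description.

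Among other genes of the pathway, in lists also made with earlier results known, 1 tile was called. Over all tiles of the genome 0.112% were called and 59.8% were higher in KO, so few or no calls in lists of this size say little. The 13 interferon receptor and JAK-STAT genes had 118 tiles, of which 77 were higher in KO with a median of 0.204 points. Their called tile lies 26.0 kb from Ifnar1, a chain of the type I interferon receptor, and overlaps the pseudogene Gm46562. It had 60.3% ± 4.96 in KO and 26.5% ± 14.1 in WT (28.2 points, adjusted p 0.0347). This call was lost without KO 1, KO 2 or WT 3 (adjusted p 0.104, 0.119 and 0.136), with equal weights at total coverage (0.0522) and in all the other fits that lost the Irf8 call, where adjusted p was 0.269 to 1.0. Socs3 and Socs1, inhibitors of the pathway, had leading tiles of 14.1% ± 1.44 against 8.38% ± 1.36 and 77.5% ± 3.32 against 66.9% ± 6.26, which did not pass (adjusted p 0.381 and 0.406); the nearest protein-coding gene of the Socs1 tile is Prm1, 14.2 kb away. The 5 other members of the Irf and Irf2bp families had 42 of 66 tiles higher and 0 called; at Irf2bp1 the leading tile had 91.3% ± 1.27 against 82.7% ± 4.53 (adjusted p 0.195), while at Irf7 the leading tile was lower in KO without overlap, 0.465% ± 0.301 against 1.9% ± 1.22 (adjusted p 0.532, within Drd4).

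Of the 23 interferon-stimulated genes listed, 21 could be matched, and 75 of their 135 tiles were higher with a median of 0.0687 points and 0 called. The 10 DNA-binding partners of the Irf proteins had 87 of 150 tiles higher, a median of 0.154 points and 0 called. Their leading tiles were near Spi1, which encodes PU.1 (37.0% ± 1.9 against 29.1% ± 3.16, adjusted p 0.238, within Madd), and near Ets1 (95.1% ± 1.07 against 89.1% ± 2.44, adjusted p 0.425). Next by p came a tile near Ikzf3, which encodes Aiolos (66.4% ± 3.08 against 51.8% ± 5.17, adjusted p 0.463, nearest protein-coding gene Zpbp2). The medians of these 4 lists ran from 0.0687 to 0.204 points, beside 0.176 over all tiles and 0.525 over the 7 loci. The marker lists lay on both sides of the 7 loci, with medians of 0.862 for B cell, 0.693 for T cell, 0.357 for myeloid, 0.0531 for NK and 0.0532 points for erythroid genes.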

How the data were processed

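ERRBS libraries of 6 samples were analysed. The authors' deposited tables list CpG cytosines by strand with their coverage, a whole-number read count, and the percent of reads with C (methylated) and T, for GRCm38 and with Bismark, per the submitters' processing notes. Every listed cytosine had at least 10 reads, per the deposited files; the Bismark version, trimming and duplicate filter were not given in the sources used here. C and T reads were recovered from percent and coverage. The members and lists were chosen with earlier results of these data known. Features were tested on C and T reads with a quasi-binomial model (1 level per genotype), overdispersion moderated as in limma and held at 1 or above, with 4 residual degrees of freedom, F test and Benjamini-Hochberg adjustment over all features, in Python 3.11.15. Features with no methylated or no unmethylated read (141 tiles) were left out. The model was tested on simulated data in which every tile had the same overdispersion. This cannot show how moderation acts where the overdispersion varies between tiles. Locus means used equal weights and exact permutation tests. Genes named beside the members were the called or smallest-p tile of each, at most 4 per list. Gene positions, sequences and names came from RefSeq (GRCm38.p6); all 224866 measured cytosines in promoter records matched their letters. Alternatives included limma 3.58.1 and edgeR 4.0.16 in R 4.3.3, other coverage minimums, tile shifts and leaving out each library.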

Additional observations from a re-analysis of the deposited data

How the results depend on the processing

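The Irf8 tile was the 1 tile called at the 7 loci, also with a coverage minimum of 20, an upper coverage limit, tiles shifted by 500 bp, at least 5 cytosines per tile, equal weights at total coverage (added after the data were seen) and without each library. The count was 0 with a replicate block, without moderation, with constant tiles kept in the moderation (also added after the data were seen), with equal weights at mean coverage, with limma and with edgeR; the unadjusted p of the tile was then 0.000393, 0.0013, 1.29e-05, 0.000616, 0.000688 and 0.000602. No tile in the whole genome was called in any of these fits. The replicate block gave an adjusted p of 0.764. Deviations of same-numbered libraries correlated at 0.048, -0.029 and -0.007. With 3 libraries per genotype this cannot show whether same-numbered samples were paired, and the labels do not say. At an unadjusted p under 0.05 there were 3 to 12 tiles higher over these settings. Of the single differences over these settings, 365 values kept their direction and side of the call, 16 values of the Irf8 and Ifnar1 tiles lost it, and 8 changed sign. Many of the 365 could not change. The block, unmoderated, constant-kept, limma and edgeR fits reuse the main pooled difference, and the exact p of a locus mean cannot fall below 0.1. The Irf2 interior passed the adjusted p without WT 3 but not the 10 points. Without single libraries, start-window differences ran from -0.272 to 0.112 points at Irf8, -0.364 to 0.0118 at Irf9, -0.0629 to 0.447 at Irf5 and -0.0202 to 0.0644 at Irf2bp2 (-0.0195 without KO 2), and the Irf4 interior from -1.11 to 2.48; the Irf8 start window was at 0.0209 with a coverage minimum of 20, and the Irf2bp2 tile at -0.0694 after the shift. The number of loci without overlap was 4, and 3 with flanks of 10 kb to 6 without KO 2; with pooled reads it was also 4, but Irf8 and Irf2bp2 gave way to Irf2 and Irf4. The Irf5 interior ran from 4.56 to 9.38 points and the Irf8 interior from 0.000129 to 3.64 without single libraries. The libraries' coverage minimum of 10 reads, the few cytosines per tile and 3 libraries per genotype limit the precision.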
